A study of Mus musculus with 8 samples.

Results

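The GIMAP genes (GTPases of immunity-associated proteins) were followed through 4 stages of the B lineage, sorted from the bone marrow of mice. The members were the 8 genes named Gimap1, Gimap3, Gimap4, Gimap5, Gimap6, Gimap7, Gimap8 and Gimap9, found by symbol among the 22298 genes of the mRNA table. Cells from the pro-B to the mature B stage of wild type C57BL/6 mice were sorted by surface staining for B220, IgM and CD43. The pro-B gate took B220+IgM-CD43+ cells, the pre-B gate B220+IgM-CD43- cells, the immature gate B220+IgM+CD43- cells and the mature gate cells with high B220, IgM and no CD43. The mice were females of 8 to 10 weeks with no treatment named, and the cells of 3 of them were pooled for each stage. Each stage gave 1 rRNA-depleted RNA library, so no difference between stages has a replicate check and no p-value is given. Intervals are exact 95% intervals that cover counting error only.

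GIMAP proteins are small GTPases of lymphocytes with an AIG1-type GTP-binding domain, and several are anchored in the membranes of organelles such as the endoplasmic reticulum, lysosomes or mitochondria. They are known for their part in the survival of lymphocytes: loss of Gimap5 leaves rodents with few T cells, and loss of Gimap1 depletes mature T and B cells. Their genes stand side by side in 1 cluster on mouse chromosome 6, in the order Gimap8, Gimap9, Gimap4, Gimap6, Gimap7, Gimap1, Gimap5 and Gimap3. Gimap6 and Gimap3 lie on the minus strand and the other 6 on the plus strand. In the same order the table lists them as ENSMUSG00000064262, ENSMUSG00000051124, ENSMUSG00000054435, ENSMUSG00000047867, ENSMUSG00000043931, ENSMUSG00000090019, ENSMUSG00000043505 and ENSMUSG00000039264.

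The promoters of 4 members are shown because their RNA moved furthest apart between the pro-B and the mature library: Gimap3 and Gimap8 had the largest folds, while Gimap6 and Gimap9 were the members whose CPM was lower in the mature library. Each is the stretch of 250 bases before the gene's start in RefSeq (GRCm38.p6), written 5′ to 3′ in the direction of the gene. Capitals mark the searched letters on either strand, and no marked matches overlap. The windows are Gimap3 chr6:48770852-48771101 on the minus strand, Gimap8 chr6:48646984-48647233 on the plus strand, Gimap6 chr6:48708245-48708494 on the minus strand and Gimap9 chr6:48675885-48676134 on the plus strand.
Gimap3: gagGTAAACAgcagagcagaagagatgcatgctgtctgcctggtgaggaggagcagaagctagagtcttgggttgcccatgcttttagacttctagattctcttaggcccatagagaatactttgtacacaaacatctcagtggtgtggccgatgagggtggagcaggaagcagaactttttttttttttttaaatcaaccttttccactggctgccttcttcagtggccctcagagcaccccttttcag
Gimap8: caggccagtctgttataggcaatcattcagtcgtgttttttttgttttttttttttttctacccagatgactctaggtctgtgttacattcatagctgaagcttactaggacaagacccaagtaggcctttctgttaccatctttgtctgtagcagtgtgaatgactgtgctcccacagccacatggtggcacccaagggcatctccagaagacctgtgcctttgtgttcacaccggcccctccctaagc
Gimap6: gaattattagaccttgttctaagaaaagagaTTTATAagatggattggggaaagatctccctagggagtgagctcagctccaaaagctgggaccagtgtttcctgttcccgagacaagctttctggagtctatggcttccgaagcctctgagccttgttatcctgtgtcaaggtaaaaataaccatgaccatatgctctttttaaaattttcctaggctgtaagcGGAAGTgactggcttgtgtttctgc
Gimap9: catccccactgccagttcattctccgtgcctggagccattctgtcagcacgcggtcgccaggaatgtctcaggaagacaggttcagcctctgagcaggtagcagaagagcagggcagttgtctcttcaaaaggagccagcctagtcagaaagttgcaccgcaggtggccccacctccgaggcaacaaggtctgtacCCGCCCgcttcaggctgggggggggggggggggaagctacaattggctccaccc

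Gimap3 was the one member with the FOXO letters GTAAACA, which lay 247 to 241 bases before its start and which 3.17% of 32851 RefSeq windows of this length hold. Gimap6 held the ETS letters GGAAGT at 25 to 20 bases before its start and TATAAA, on the other strand, at 219 to 214 bases. Those letters stand in 19.7% and 12.4% of all windows. Gimap9 held the SP1 letters GGGCGG, on the other strand, as 32.7% of windows do, and had the highest G and C content of the members at 61.2%, against a median of 52.4% over all windows. The first Gimap8 window, 1 of 2 listed for that gene, held none of the letters searched, and neither did the second. Among the members not printed, Gimap1, Gimap4 and Gimap7 held the RUNX letters TGTGGT, found in 14.0% of windows. Gimap5 held the ETS letters at 2 places and Gimap7 also the SP1 letters. None of the 8 members held the Ikaros letters TGGGAA (21.6% of windows), the E-box CAGCTG (13.0%) or the KLF letters CACACCC (6.93%). These matches describe letters in these windows and say nothing of binding.

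The mRNA counts totalled 867920 for pro-B cells, 240231 for pre-B cells, 223495 for immature and 849350 for mature cells. They made up 23.7% of the mRNA and lncRNA counts together at the pro-B stage, 6.48% at the pre-B stage, 6.48% at the immature stage and 23.5% at the mature stage. The mRNA and lncRNA counts together were much alike, at 3663439 for pro-B, 3709988 for pre-B, 3450657 for immature and 3614857 for mature cells. The libraries thus differed in mRNA counts more than in this total, and the pro-B and mature libraries were alike in both. In these 2, the 3 counts that a count of 0 allows corresponded to 3.46 and 3.53 CPM (counts scaled to a common mRNA total). In the pre-B and immature libraries they corresponded to 12.5 and 13.4 CPM. A count of 2 was far more frequent than a count of 1 (1263 against 154 genes in the pro-B library), so intervals are also given for read pairs, with counts halved, where that changes a statement. Of 4 lists of stage markers, 3 were highest by CPM in the library of that name and 1 was not. The summed level of 6 pro-B markers was 2321 CPM in the pro-B library and at most 179 CPM in the others, and that of 6 mature B markers was 5708 CPM in the mature library and at most 1324 CPM in the others. That of 4 immature B markers was 9504 CPM in the immature library and at most 7530 CPM elsewhere. Ighm made up most of it, at 7816 CPM there and 7147 CPM in the pre-B library. Igkc and Ms4a1 were also highest by CPM in the immature library. By FPKM (fragments scaled to transcript length and library) Ighm, Igkc and Ms4a1 were instead highest in the mature library. They stood at 380.7, 101.6 and 41.4 FPKM there and at 202.8, 46.25 and 14.04 in the immature library. Cd93 was highest in the pro-B library, at 429 CPM against 94.0 CPM in the immature library. The sum of 4 pre-B markers was 1066 CPM in the pre-B library and higher, 1278 CPM, in the pro-B library, where Rag1, a recombinase subunit, stood at 918 CPM against 372 CPM. The other 3 pre-B markers, Rag2, Il2ra and Vpreb3, had a higher CPM in the pre-B than in the pro-B library. For Il2ra this was a 1.22-fold difference, on 20 and 59 counts. By FPKM all 3 were instead higher in the pro-B library. Rag2 stood at 7.41 FPKM there and 4.21 in the pre-B library, Il2ra at 4.07 and 1.10, and Vpreb3 at 46.58 and 19.71.

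GIMAP RNA was plentiful in the pro-B and mature libraries and scarce in the 2 between them. The 8 genes together had 628 counts at the pro-B stage, 28.4 at the pre-B stage, 43.3 at the immature stage and 1019 at the mature stage, not all whole since the counts are estimates. On the CPM scale this was 723 CPM at the pro-B stage (interval 668 to 782), 118 at the pre-B stage (77.4 to 168), 194 at the immature stage (139 to 259) and 1200.3 at the mature stage (1127 to 1276). All 8 genes had counts in the pro-B and in the mature library, and 4 of 8 had counts in each of the other 2. At least 10 counts were reached by 7 members at the pro-B stage, 1 at the pre-B stage, 2 at the immature stage and 8 at the mature stage. In bulk samples such as these, fewer cells of a type and less RNA per cell cannot be told apart.

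**Figure D1:**
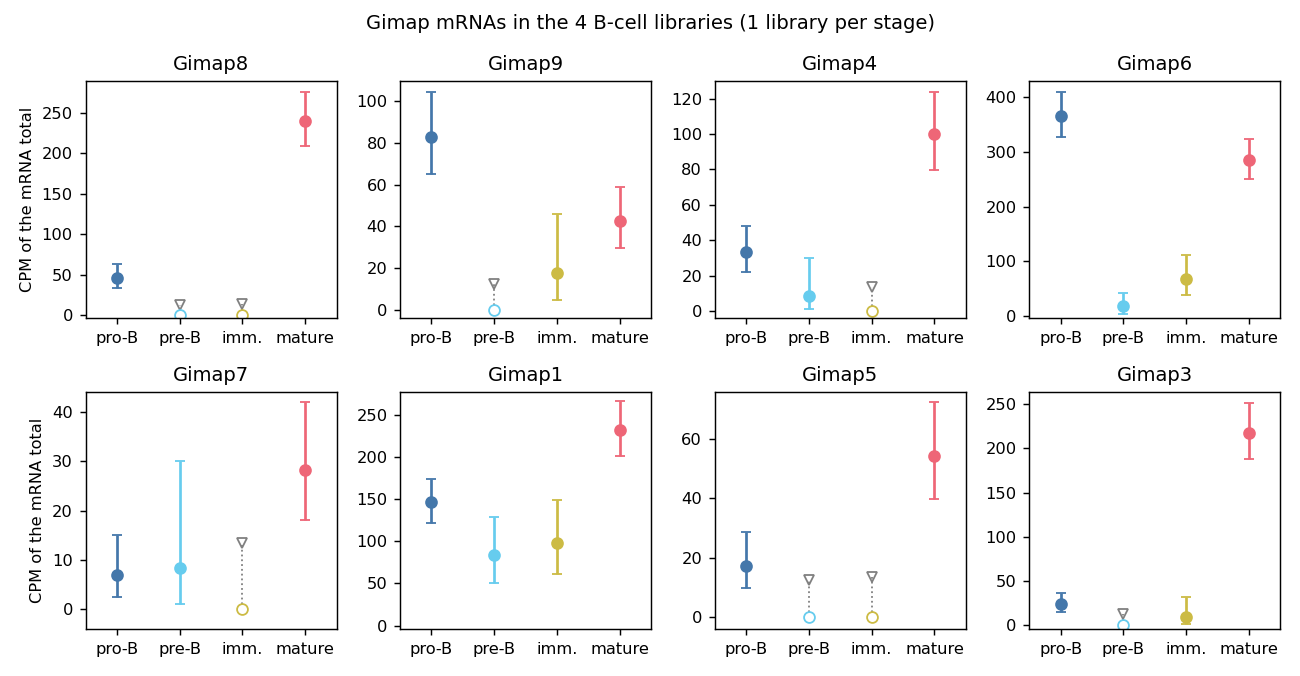
CPM of the mRNA column total (vertical axis) for each of the 8 GIMAP genes in the pro-B, pre-B, immature and mature library (1 library per stage), with exact 95% counting intervals as bars. Open circles are counts of 0, and the triangle above each is the level of 3 counts. All 8 genes had counts in the pro-B and mature libraries, while Gimap5 and Gimap8 had none in either library between.

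Length-scaled values (FPKM, fragments scaled to transcript length and library) allow the members to be ranked within a library. In pro-B cells Gimap6, a cytoplasmic member known for its link to autophagy, led at 49.1 FPKM (counting interval 43.8 to 54.8), with only 1.93% of the 8656 genes at 1 FPKM or more above it. Gimap1, a member anchored in the endoplasmic reticulum, followed at 17.9 FPKM (14.9 to 21.3) and Gimap9 at 9.57 FPKM (7.49 to 12.05). Gimap5 (4.08 FPKM), Gimap4 (3.71), Gimap8 (2.58) and Gimap3 (1.80) came next, and counting error alone covers each step among these 4. Gimap7 stood at 0.87 FPKM, on 6 counts.

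In mature B cells the order of the upper members was Gimap6 at 38.5 FPKM (33.7 to 43.6), Gimap1 at 27.6 (23.9 to 31.8), Gimap3 at 16.7 (14.4 to 19.3) and Gimap8 at 13.4 (11.6 to 15.3). The intervals of Gimap6 and Gimap1 did not overlap by counts but did in read pairs (31.9 to 45.9 and 22.3 to 33.5), and both lay above those of the other members. The intervals of Gimap3 and Gimap8 overlapped. Gimap5 (11.2 FPKM), Gimap4 (10.4), Gimap9 (4.92) and Gimap7 (3.58) followed, with the first pair and the last pair within counting error. Gimap5 and Gimap4 both overlapped Gimap8, and Gimap5 also overlapped Gimap3. Gimap3 moved from a level that 80.4% of the genes at 1 FPKM or more exceeded in the pro-B library to one that 9.19% exceeded in the mature library. Gimap9 moved the other way, from 1639 of 8656 such genes above it to 3205 of 8013.

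Mature and pro-B cells were compared first, since their libraries had like mRNA totals and like mRNA shares. Of the 8 members, 5 were at least 2-fold higher in the mature library and 0 lower, where 13.2% of the 9634 genes tested were at least 2-fold higher and 24.2% lower. Genes entered this comparison with at least 10 counts in 1 of the 2 libraries. Of the members, 7 passed in both libraries and Gimap7 only through the mature library, where it had to be high. The median log2 ratio was 1.62 over the 8 members and -0.19 over all genes tested.

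Gimap3, a close relative of Gimap5 that is placed at the mitochondrial outer membrane, had 21 counts at the pro-B stage, 0 at the pre-B stage, 2 at the immature stage and 185 at the mature stage. It was 9.002-fold higher in the mature than in the pro-B library (5.72 to 14.9), and 4.89 to 20.3 when read pairs were counted. Gimap3 and Gimap5 are alike in sequence, so reads between these 2 genes may have been split by the counting and their separate values are uncertain. Their deposited counts were whole in every library, while those of Gimap6, and of Gimap1 at the pro-B stage, held fractions. How shared reads were assigned was not tested. Gimap5, known for its part in keeping lymphocytes alive, had 15 counts at the pro-B stage, 0 at the pre-B stage, 0 at the immature stage and 46 at the mature stage, 3.13-fold higher in the mature library (1.72 to 6.04).

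Gimap8, the largest member, with several GTP-binding domains, had 40 counts at the pro-B stage, none in pre-B or immature B cells and 204 at the mature stage. Its mature level of 240.2 CPM was 5.21-fold above the pro-B level of 46.1 CPM (3.70 to 7.51). Gimap4, described as a factor in the death of T cells, had 29 counts at the pro-B stage, 2 at the pre-B stage, 0 at the immature stage and 85 at the mature stage, a 2.995-fold difference between the outer stages (1.94 to 4.74). Gimap7, a member found at lipid droplets, had 6, 2, 0 and 24 counts in the same order of stages. It was 4.09-fold higher in the mature library (1.63 to 12.2), the widest interval of the 8.

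The remaining 3 members stayed within 2-fold. Gimap1 had 127 counts at the pro-B stage, 20 at the pre-B stage, 22 at the immature stage and 197 at the mature stage, with a 1.59-fold higher mature level (1.26 to 1.997). Gimap6 had 318, 4.39, 15.3 and 242 counts in that order and was 1.28-fold lower in the mature library (1.08 to 1.53). This difference was within counting error with trimmed-mean (TMM) scaling, which gave a ratio of 0.863 (0.726 to 1.02), and with median-of-ratios scaling, which gave 0.883 (0.742 to 1.04). Gimap9, a cytosolic member, had 72 counts at the pro-B stage, 0 at the pre-B stage, 4 at the immature stage and 36 at the mature stage, 1.96-fold lower in the mature library (1.29 to 3.01). The members together were 1.66-fold higher in the mature library, with an interval in read pairs of 1.44 to 1.92.

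**Figure D2:**
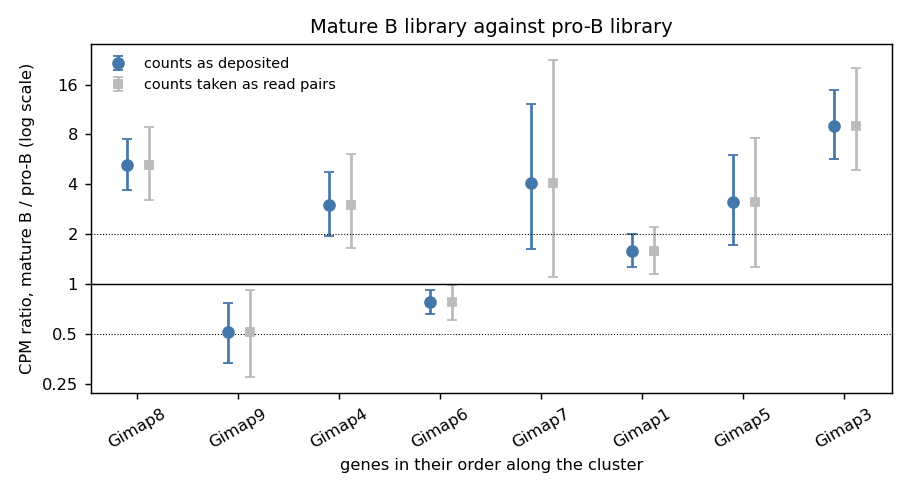
Ratio of CPM in the mature to the pro-B library for each GIMAP gene in cluster order (log axis), with exact 95% intervals for counts as deposited (blue) and as read pairs (grey); dotted lines mark 2-fold. 5 of 8 members lie past 2-fold higher and none past 2-fold lower.

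Ratios between members within a library do not depend on how the libraries are scaled. For every 100 counts of Gimap6 there were 6.61 of Gimap3 in the pro-B library and 76.3 in the mature library, an 11.5-fold change in their ratio (7.07 to 19.7). The ratio of Gimap8 to Gimap6 changed 6.69-fold (4.54 to 10.03), from 12.6 to 84.1 per 100. That of Gimap1 changed 2.04-fold (1.53 to 2.72), and that of Gimap9 to 0.655 of its pro-B value, an interval of 0.413 to 1.03 that includes no change.

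The make-up of the family's counts differed accordingly. Gimap6 gave 50.6% of the family's counts at the pro-B stage (46.7 to 54.6) and 23.7% at the mature stage (21.2 to 26.5). Gimap8 and Gimap3 together gave 9.72% at the pro-B stage and 38.2% at the mature stage. Gimap1 held a like share in both, 20.2% (17.1 to 23.6) and 19.3% (17.0 to 21.9). In pre-B cells Gimap1 gave 20 of 28 counts, or 71.4% (51.3 to 86.8), and at the immature stage 22 of 43, or 51.2% (35.5 to 66.7). The pre-B share was above the pro-B and mature shares beyond counting error, and it remained so in read pairs (41.9 to 91.6).

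**Figure D3:**
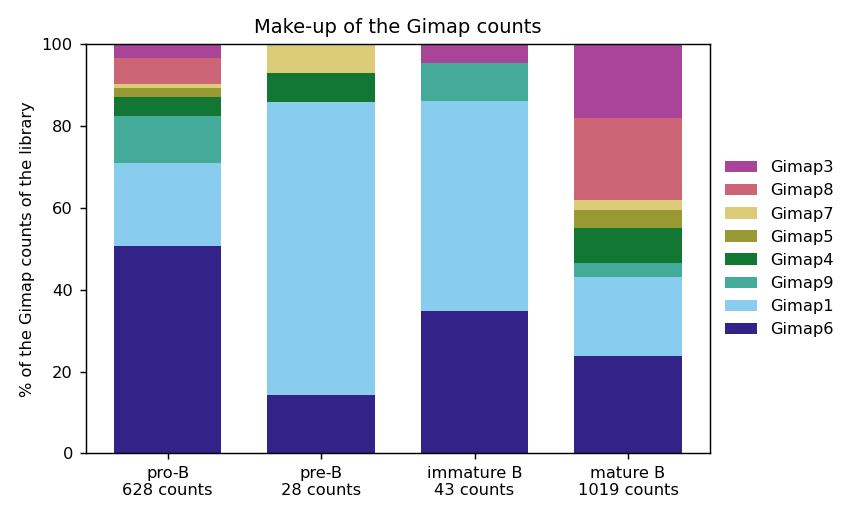
Share of the family's counts (percent) that each GIMAP gene gave in each library. Gimap6 leads at the pro-B stage at 50.6%, Gimap1 in pre-B and immature B cells, and Gimap8 and Gimap3 together reach 38.2% at the mature stage.

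From pro-B to pre-B cells, 4 of the 7 members tested were at least 2-fold lower and 0 higher, where 31.4% of 9152 genes were at least 2-fold lower and 14.8% higher. Of these 7, 6 entered only through the pro-B library, where they were high, so the count gives no support of its own. Gimap6 was 20.04-fold lower at the pre-B stage (8.51 to 81.3), the largest fold measured among the members in this comparison. Gimap9 was at least 6.64-fold lower and Gimap8 at least 3.69-fold lower, taken against the 3 counts that a count of 0 allows. Such a bound leaves out the counting error of the other library, and with it their intervals began at 5.27-fold and 2.87-fold lower. Against 3 read pairs Gimap9 was at least 3.32-fold lower and Gimap8 at least 1.85-fold, so that Gimap8 no longer passed 2-fold and the count of lower members was 2. Gimap4, with 2 counts at the pre-B stage, was 4.01-fold lower (1.01 to 34.7), an interval that includes no change in read pairs. Gimap1 was 1.75-fold lower (1.09 to 2.97), again within counting error in read pairs. Gimap5 and Gimap3 were at 0 at the pre-B stage and, against 3 counts, at least 1.38-fold and at least 1.94-fold lower. The interval of Gimap5 includes no change, and so do those of both genes in read pairs. Gimap7 had 6 and 2 counts and was not tested. The members together were 6.12-fold lower at the pre-B stage (4.25 to 9.42).

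Between pre-B and immature B cells the family was near the limit that the low mRNA counts of these libraries set. Only Gimap6 and Gimap1 had enough counts. Gimap6 was 3.74-fold higher at the immature stage (1.28 to 16.7), but the interval in read pairs, 0.858 to 41.6, includes no change. Gimap1 differed by 1.18-fold (0.616 to 2.28). Over all 5838 genes tested 18.9% were at least 2-fold higher and 20.2% lower. The summed level was 1.64-fold higher at the immature stage (1.002 to 2.76), and in read pairs the interval of 0.826 to 3.57 includes no change.

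From immature to mature B cells all 8 members were at least 2-fold higher, where 26.7% of 8363 genes were at least 2-fold higher and 18.1% lower. Of the 8, 6 entered only through the mature library, where they were high, so the count gives no support of its own. Gimap3 was 24.3-fold higher (6.64 to 202), Gimap8 at least 17.9-fold, Gimap4 at least 7.46-fold, Gimap5 at least 4.03-fold and Gimap7 at least 2.11-fold. With the counting error of the mature library, the intervals of Gimap8, Gimap4, Gimap5 and Gimap7 began at 14.4, 5.93, 3.15 and 1.58. Against 3 read pairs the bounds of these genes were 8.95, 3.73, 2.02 and 1.05. The interval of Gimap7 in read pairs began at 0.731 and includes no change. Gimap6 was 4.17-fold higher (2.52 to 7.70) and Gimap1 2.36-fold higher (1.51 to 3.85), both with counts in each library. Gimap9, at 2.37-fold, had an interval of 0.849 to 9.16 that includes no change. In read pairs, the members other than Gimap7 and Gimap9, 6 of 8, kept both a 2-fold difference and an interval without 1. The summed level was 6.20-fold higher at the mature stage (4.60 to 8.67).

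The folds that involve the pre-B or the immature library depend on the scale. The deposited FPKM values divide by nearly equal totals. The mRNA counts differ between the libraries, while the mRNA and lncRNA counts together are nearly equal too. On the FPKM scale the members together were 23.4-fold lower at the pre-B than at the pro-B stage. They were 23.4-fold higher at the mature than at the immature stage. That scale moved all genes too, by -1.93 and 1.92 on the log2 scale. The share of 2-fold calls over all genes that were higher went from 32.1% to 2.60% for pre-B against pro-B cells and from 59.6% to 96.2% for mature against immature B cells. Gimap7, 1.20-fold higher at the pre-B stage by CPM (0.119 to 6.73), was 3.17-fold lower on that scale, a ratio of 0.315 (0.0311 to 1.76). Each of these intervals includes no change. The comparison of mature with pro-B cells moved by 0.01. TMM and median-of-ratios scaling moved all genes there by 0.15 and 0.18, and the latter moved pre-B against pro-B cells by 0.18.

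**Figure D4:**
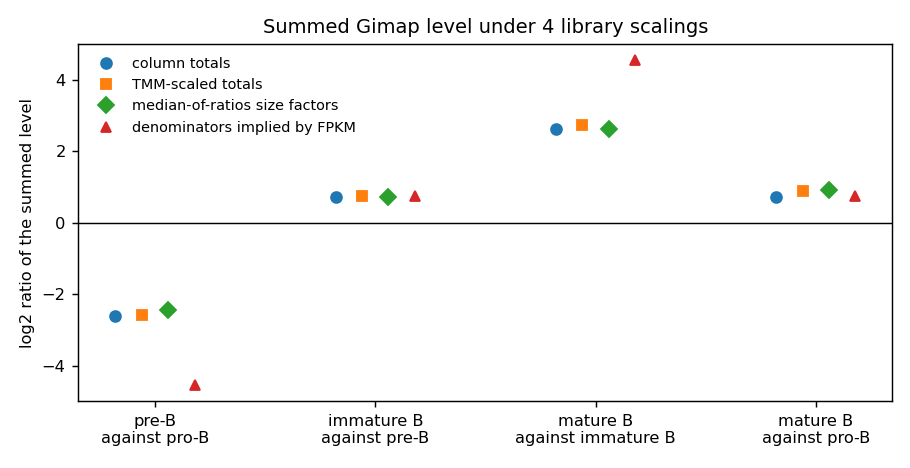
Log2 ratio of the summed GIMAP level for each comparison of stages under 4 scalings (column totals, TMM, median of ratios, and the totals implied by FPKM). The FPKM-implied scaling moves pre-B against pro-B from -2.61 to -4.55 and mature against immature from 2.63 to 4.55, and leaves mature against pro-B near its place.

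GIMAP genes are also active in T cells and natural killer (NK) cells, so markers of other cells were summed in each library. All 8 NK markers had counts in the pro-B library, 340 CPM in all, led by Gzma, a granule protease, at 106 counts. The NK sum was 0 at the pre-B stage, 8.95 CPM at the immature stage and 11.8 CPM at the mature stage. The sum of 8 T-cell markers was 70.3 CPM at the pro-B stage, 24.98 at the pre-B stage, 8.95 at the immature stage and 8.24 at the mature stage. Of these, 5 of 8 had counts in the pro-B library. Thy1, a surface protein of T cells and other cells, had 28 counts there and 4 in the mature library, and Cd28, a co-stimulatory receptor, had 17 and 2. Lat had 8 counts and Cd8b1 6 in the pro-B library, with 0 in the mature library. The defining genes of the T-cell receptor complex, named outside the rule and after their values were seen, were lower: Cd3e had 1 count, in the mature library, Cd3d 2, in the pre-B library, and Cd3g 2, in the pro-B library. Bcl11b had 0 in every library. Markers of plasmacytoid dendritic cells summed to 356, 58.3, 125 and 70.6 CPM in the same order. The NK, T-cell and dendritic sums were thus highest in the pro-B library, 1 of the 2 with plentiful GIMAP RNA, and their part in its level was not tested. In the mature library the T-cell and NK sums were 8.24 and 11.8 CPM beside 1200.3 CPM of GIMAP RNA, with 3 of 8 genes above 0 in each list. Myeloid markers (969, 1107, 890 and 812 CPM) and erythroid markers (282, 276, 103 and 162 CPM) were present in every library, as were plasma cell markers (316, 375, 282 and 111 CPM).

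**Figure D5:**
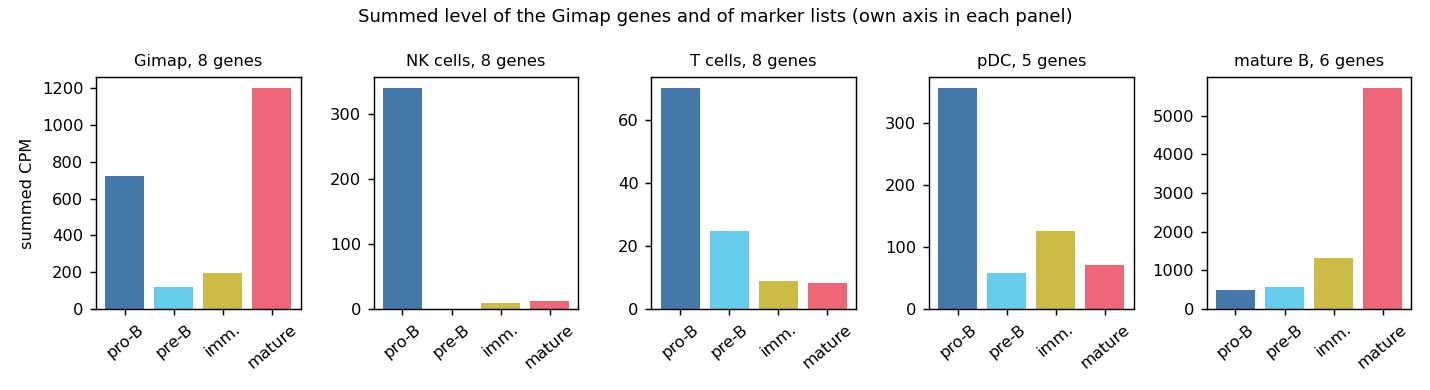
Summed CPM of marker lists for NK cells, T cells, plasmacytoid dendritic cells (pDC) and mature B cells in each library, beside the summed GIMAP level, with an axis of its own in each panel. The NK sum is 340 CPM in the pro-B library and at most 11.8 CPM in the others, while the GIMAP sum is highest in the mature library.

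GIMAP proteins act beside the machinery of cell survival and autophagy, for which 16 genes were listed. Between mature and pro-B cells 3 of 15 tested were at least 2-fold higher and 6 lower, beside 13.2% and 24.2% of all genes, with a median log2 ratio of -0.27 against -0.19 over all genes. From pro-B to pre-B cells 3 of 14 were higher and 3 lower (median 0.31, all genes -0.44), beside 14.8% and 31.4% of all genes. From pre-B to immature B cells 0 of 10 were higher and 2 lower (-0.26, all genes -0.02), beside 18.9% and 20.2%. From immature to mature B cells 2 of 13 were higher and 2 lower (0.06, all genes 0.27), beside 26.7% and 18.1%. Mcl1, which blocks mitochondrial cell death, had 637 counts at the pro-B stage, 108 at the pre-B stage, 140 at the immature stage and 553 at the mature stage. By CPM this was 734, 450, 626 and 651, and on that scale Mcl1 passed 2-fold in no comparison. By FPKM it stood at 73.1, 13.75, 18.31 and 66.46, well lower in the pre-B and immature libraries. Bcl2l11, which promotes such death, had 182, 18.4, 15 and 87.8 counts in the same order, or 209, 76.4, 67.1 and 103 CPM. Bcl2 and its relative Bcl2l1 are named outside the rule and were chosen after their values were seen. Bcl2, a survival factor, had 30, 0, 4 and 111 counts, or 34.6, 0, 17.9 and 131 CPM. Bcl2l1 had 88, 40, 10 and 6 counts, or 101, 167, 44.7 and 7.06 CPM. Their log2 ratios between mature and pro-B cells were 1.92 and -3.84.

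Genes next to the cluster on chromosome 6 were sparse. Of 10 listed neighbours 9 were in the table. Between mature and pro-B cells 2 of 5 tested were at least 2-fold higher and 2 lower, where all genes gave 13.2% and 24.2%. From pro-B to pre-B cells 1 of 4 was higher and 1 lower (all genes 14.8% and 31.4%), from pre-B to immature B cells 0 of 1 higher and 1 lower (18.9% and 20.2%), and from immature to mature B cells 2 of 3 higher and 1 lower (26.7% and 18.1%). Lrrc61 had 10, 14, 2 and 33 counts from pro-B to mature B cells, or 11.5, 58.3, 8.95 and 38.9 CPM. Repin1 had 23, 2, 2 and 16 counts, or 26.5, 8.33, 8.95 and 18.8 CPM.

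The genes whose profile over the 4 libraries was closest to that of the summed members were Elmo1, Arl4a, Phtf2, Mdn1 and Runx3, out of 4731 genes with at least 100 counts. Likeness was the Euclidean distance between profiles, each gene's CPM divided by its sum over the 4 libraries, and ranged from 0.0261 for Elmo1 to 0.0333 for Runx3. Counting error was not carried into these distances. Arl4a had 2 counts in each of the pre-B and immature libraries, and Phtf2 had 4 in each. The members' summed profile was 32.3% pro-B, 5.29% pre-B, 8.66% immature and 53.7% mature. Single members differed from it, with a pro-B share of 49.6% for Gimap6 and 9.64% for Gimap3. Elmo1, an adaptor in the activation of Rac, had 201, 9, 12 and 299 counts, and Runx3, a Runt transcription factor, 42, 2, 2 and 63.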

How the data were processed

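By the study's methods, fastp 0.18.0 filtered the reads, Bowtie2 2.2.8 took out rRNA, HISAT2 2.1.0 aligned what was left and StringTie 1.3.4 quantified it. Estimated counts per gene or lncRNA transcript, not normalized, are as the authors deposited them. The FPKM values deposited by the authors are scaled by transcript length and library. The circRNA counts and RPM values the authors deposited are back-spliced reads, raw and scaled to the library's total of them. The submitters' processing notes list mm9 and Bowtie 0.12.2 without a role. The small RNA table was not used.

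CPM were counts over the mRNA column total. A member or gene was tested with at least 10 counts in 1 of the 2 libraries and called at a ratio of at least 2, with 0 replaced by 3 counts. Intervals are exact 95% Poisson intervals for counts, Clopper-Pearson intervals for shares and conditional binomial intervals for ratios. TMM factors came from edgeR 4.0.16 and size factors from DESeq2 1.42.0, with no test. Python 3.11.15, numpy 2.4.6, pandas 2.3.3, scipy 1.17.1, matplotlib 3.10.9 and R 4.3.3 were used, and the ratios were tested on simulated data. Gene names come from the mRNA table. All 8 members are named, with up to 4 genes of the most counts from each list and the 5 nearest profiles, apart from genes said to be chosen after their values were seen. Motif letters were searched on both strands. The members and lists were chosen with earlier results of these data known.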

Additional observations from a re-analysis of the deposited data

Results flagged for a closer look

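GIMAP signal appeared outside the mRNA table, in data that the comparisons above did not use. Among noncoding transcripts, ENSMUST00000132725 of Gimap6 had 20 counts at the pro-B stage, 0 in pre-B and immature B cells and 14 at the mature stage. ENSMUST00000135174 of Gimap5 had 4.6 counts at the pro-B stage and 17 at the mature stage, with 0 between. A second Gimap5 transcript, ENSMUST00000147047, had 4.4 counts at the pro-B stage and 0 elsewhere. The antisense transcript ENSMUST00000155906 of Gimap1os had 3, 2, 0 and 10.04 counts from pro-B to mature B cells. All 4 were flagged because they lie above the 3 counts that a count of 0 allows.

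A circRNA of 1 Gimap6 exon (347 bases, chr6:48702204-48702550 on the minus strand in the authors' coordinates) had 4 back-spliced reads at the immature stage with none elsewhere, and was flagged for the same reason. The submitters' notes list mm9, but 96.6% of 963 circRNAs lie inside the RefSeq gene of the same symbol in GRCm38.p6, so the build of these coordinates is uncertain.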

How the results depend on the processing

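Of 68 values under alternative settings, 8 moved beyond the limits set, which were a factor of 1.5 for a count of members and the counting interval for a summed ratio, and 60 stayed within them. Within them, the 8 members higher in mature than in immature cells became 7 with an interval that excludes 1 and 6 in read pairs. With the totals implied by FPKM, the members at least 2-fold lower from the pro-B to the pre-B stage went from 4 to 7, and the log2 ratio of the summed level from -2.61 to -4.55. The same scaling took mature against immature B cells from 2.63 to 4.55. With read pairs and an interval that excludes 1, chosen after seeing the data, the pre-B count of lower members fell to 2 and the immature against pre-B count of higher members from 1 to 0. A minimum of 20 counts also gave 0 there. Mature against pro-B cells moved from 0.73 to 0.88 with TMM and 0.91 with median-of-ratios factors. The 5 members higher in mature than in pro-B cells stayed 5 in number under every alternative run. No paired analysis was possible because each stage has 1 library, and for the same reason no replicate could be left out. Low mRNA counts limit the pre-B and immature values, where 1 and 2 members reached 10 counts.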

Other observations

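Other GTPases of immunity, the interferon-inducible GBP, IRG, Mx and very large families, were listed beside the GIMAP genes. Between mature and pro-B cells 2 of 17 tested were at least 2-fold higher and 8 lower, beside 13.2% and 24.2% of all genes, with a median log2 ratio of -0.58 against -0.19 over all genes. From pro-B to pre-B cells 1 of 15 was higher and 7 lower (-0.85, all genes -0.44), beside 14.8% and 31.4% of all genes. From pre-B to immature B cells 3 of 8 were higher and 2 lower (0.63, all genes -0.02), beside 18.9% and 20.2%. From immature to mature B cells 5 of 14 were higher and 3 lower (-0.17, all genes 0.27), beside 26.7% and 18.1%. Gvin1, a very large interferon-inducible GTPase, had 324 counts at the pro-B stage, 15.7 at the pre-B stage, 24.1 at the immature stage and 729 at the mature stage, a log2 ratio of 1.20 between mature and pro-B cells. By CPM these Gvin1 values were 373, 65.4, 108 and 858. Gbp9, a guanylate-binding protein, had 196, 22, 47.6 and 138 counts in the same order, or 226, 91.6, 213 and 162 CPM. Irgm1, which acts in defence against intracellular microbes, had 129, 30, 21 and 61.5 counts. By CPM these Irgm1 values were 149, 125, 94.0 and 72.4, with no step between adjacent stages past 2-fold. By FPKM they were 10.56, 2.33, 1.92 and 5.14, so on that scale the mature value was above the immature one.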
